A study of Homo sapiens with 26 samples.

Results

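Solute carrier genes, the SLC and SLCO families of membrane transporters, were followed through the glucocorticoid receptor (GR) binding regions that lay nearest to them. A region counted as a member when the protein-coding gene start nearest to its midpoint lay within 100 kb and belonged to a gene whose symbol begins with SLC and a digit or with SLCO (GENCODE 44, build hg38). This held for 196 of 10740 regions, at 99 of 385 such genes in the annotation, and for 7574 regions a protein-coding gene of any kind lay within that distance. The rule used gene names and distance and no measured value. Nearness does not show that a region acts on the gene, and no expression values were used here.

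GR occupancy was measured by chromatin immunoprecipitation with sequencing in A549, an established cell line from a human lung carcinoma that keeps some traits of alveolar epithelial cells. Cells carried a control adenovirus with green fluorescent protein (Ad-GFP) or one with the NF-κB inhibitor IκBαΔN (Ad-IκBαΔN); NF-κB is an inflammatory transcription factor. Cells of each virus were not stimulated (NS), given 300 nM budesonide, a synthetic glucocorticoid, for 1 h (Bud), or given budesonide with 1 ng/ml interleukin-1β for 1 h (IL1B+Bud). All 6 groups had been kept in serum-free medium, and the labels give 2 libraries per group from 2 independent experiments, but the table holds 1 authors' value per region and group. No difference below therefore has a replicate check or a test. Values are GR signal on a linear scale, obtained from the deposited log2(signal + 1), and a region is called higher or lower from a log2 difference of 1 in size upwards. The depth behind each value is unknown, and all regions are GR regions of 400 bp, so the cell type could not be checked against expressed markers.

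Solute carriers move amino acids, sugars, metals, inorganic ions, nucleotides, vitamins and drugs across plasma and organelle membranes, and families are numbered by sequence relationship. In lung epithelium they take up nutrients, phosphate, choline and metals and help to set the salt, fluid and acid balance of the airway surface. GR, when bound by a glucocorticoid, attaches to chromatin at glucocorticoid response elements (GRE) or together with other factors, and IL1B activates NF-κB, which binds κB motifs. IκBαΔN holds NF-κB in the cytoplasm.

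The sequences of the regions with the highest gain on adding IL1B in Ad-GFP cells are shown to let their motif content be read. Windows of 200 bases around the midpoint, or only the sites where the window overlaps a UTR, were taken from hg38 on the forward strand. Capitals mark a match to the κB motif or to the AP-1 motif TGACTCA or TGAGTCA, searched on both strands.
SLC12A7 intron, chr5:1082141-1082340: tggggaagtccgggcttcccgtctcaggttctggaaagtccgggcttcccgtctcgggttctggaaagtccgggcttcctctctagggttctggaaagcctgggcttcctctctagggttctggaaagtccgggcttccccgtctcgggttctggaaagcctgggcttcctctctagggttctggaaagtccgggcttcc
SLC39A8 upstream, chr4:102439356-102439555: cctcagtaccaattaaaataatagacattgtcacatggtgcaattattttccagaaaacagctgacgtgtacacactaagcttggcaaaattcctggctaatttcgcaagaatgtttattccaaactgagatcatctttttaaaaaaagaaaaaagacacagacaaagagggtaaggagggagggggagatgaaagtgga
SLC39A8 intron, chr4:102411461-102411660: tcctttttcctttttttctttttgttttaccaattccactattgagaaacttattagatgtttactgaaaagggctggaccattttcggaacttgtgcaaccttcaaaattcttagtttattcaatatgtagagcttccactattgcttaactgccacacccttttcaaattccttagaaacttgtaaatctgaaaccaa
SLC41A2 intron, chr12:104930714-104930913: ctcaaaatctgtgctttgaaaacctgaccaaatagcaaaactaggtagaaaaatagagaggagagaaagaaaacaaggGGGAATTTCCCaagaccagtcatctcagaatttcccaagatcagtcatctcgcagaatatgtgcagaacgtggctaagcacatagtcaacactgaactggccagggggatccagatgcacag
SLC9A8 κB site, chr20:49812616-49812635: tcagaGGAGTTTCCCcaaaa
SLC9A8 AP-1 site, chr20:49812596-49812612: cagggTGAGTCAcagtg
The SLC12A7 window is a tandem repeat. Of its bases, 80.6% were identical to the base 30 positions further on, against 35.3% to 40.2% at the best shift, between 10 and 100 bases, of the other 5 windows printed here. It held no κB, GRE or AP-1 match, nor did the SLC39A8 windows. In SLC41A2 the capitals hold 2 overlapping κB matches. The treatment of reads that match several repeat copies is not stated in the sources used here.

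The next set shows regions with high signal under budesonide alone. It also shows sites in regions whose signal fell when IL1B was added in Ad-GFP cells. At SLC38A2 that fall was just within 2-fold (-0.98). Capitals mark a GRE-like match, AGAACA and TGTTCT separated by 3 bases of any kind with at most 2 mismatches in the 12 fixed bases, on the forward strand of hg38.
SLC45A1 upstream, chr1:8259226-8259425: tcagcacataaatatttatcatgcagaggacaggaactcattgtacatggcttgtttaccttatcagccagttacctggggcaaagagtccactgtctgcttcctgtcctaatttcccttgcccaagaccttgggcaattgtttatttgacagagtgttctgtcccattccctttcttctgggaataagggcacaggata
SLCO4A1 upstream, chr20:62624050-62624249: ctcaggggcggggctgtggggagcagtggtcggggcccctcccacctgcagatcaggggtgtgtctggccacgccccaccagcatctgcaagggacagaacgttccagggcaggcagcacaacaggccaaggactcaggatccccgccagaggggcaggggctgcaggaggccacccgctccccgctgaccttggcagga
SLC38A2 GRE-like site, chr12:46445679-46445703: gtactAGAACATTTTGTACTtgtgt
SLC2A14 GRE-like site, chr12:7896881-7896905: gctccAGGACTGGATGTTCTgggtc
SLC4A4 GRE-like site, chr4:71151160-71151184: ccaacATCACAGAATGTTCTgtgcc
SLC25A25 GRE-like site, chr9:128043842-128043866: gacagACAACCTACTGTTCTtgctt
The SLC38A2 site had 1 mismatch and the other 3 sites had 2. The SLC45A1 and SLCO4A1 windows, with 2 of the highest budesonide signals, held no match. A GRE-like match was present in 31 of 196 members (15.8%) and in 14.7% of all regions, a κB match in 35 (17.9%) and 21.3%, and an AP-1 match in 56 (28.6%) and 22.8%. With at most 1 mismatch a GRE-like match was present in 2 members (1.02%) and in 3.43% of all regions. These matches are letters in a window of 400 bases and do not show a bound factor.

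The members lay a median of 25.8 kb from the gene start, against 28.0 kb for all linked regions. Introns held 110 of the midpoints, intergenic sequence 78, UTRs 6 and coding exons 2. The nearest SLC gene itself contained 100 of the regions, and 18 lay only inside a neighbouring gene, such as 3 regions assigned to the fatty acid transporter SLC27A2 inside ATP8B4. There were 49 genes with 1 region, 25 with 2, 13 with 3 and 12 with 4 or more, and these 12 held 58 regions. Regions of 1 gene are not replicates, and 37 neighbouring pairs of members had midpoints within 10 kb of each other. The farthest members were an SLCO3A1 region at 99.959 kb, where Ad-GFP cells had 3.70 under Bud and 108 under IL1B+Bud, and an SLC12A2 region at 95.598 kb, with 50.6 and 28.6. Just outside lay 2 SLC25A33 regions at 100.437 kb, with 25.3 and 20.4, and at 102.972 kb, with 142 and 82.6.

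The authors sorted the regions into 3 classes, by a definition not stated in the sources used here. Of the members, 69 (35.2%) were in the increasing class, 56 (28.6%) in the unchanged class and 71 (36.2%) in the decreasing class. Over all regions the shares were 40.5%, 31.8% and 27.8%. If GR signal of these groups set the classes, values by class follow in part from that choice.

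**Figure D1:**
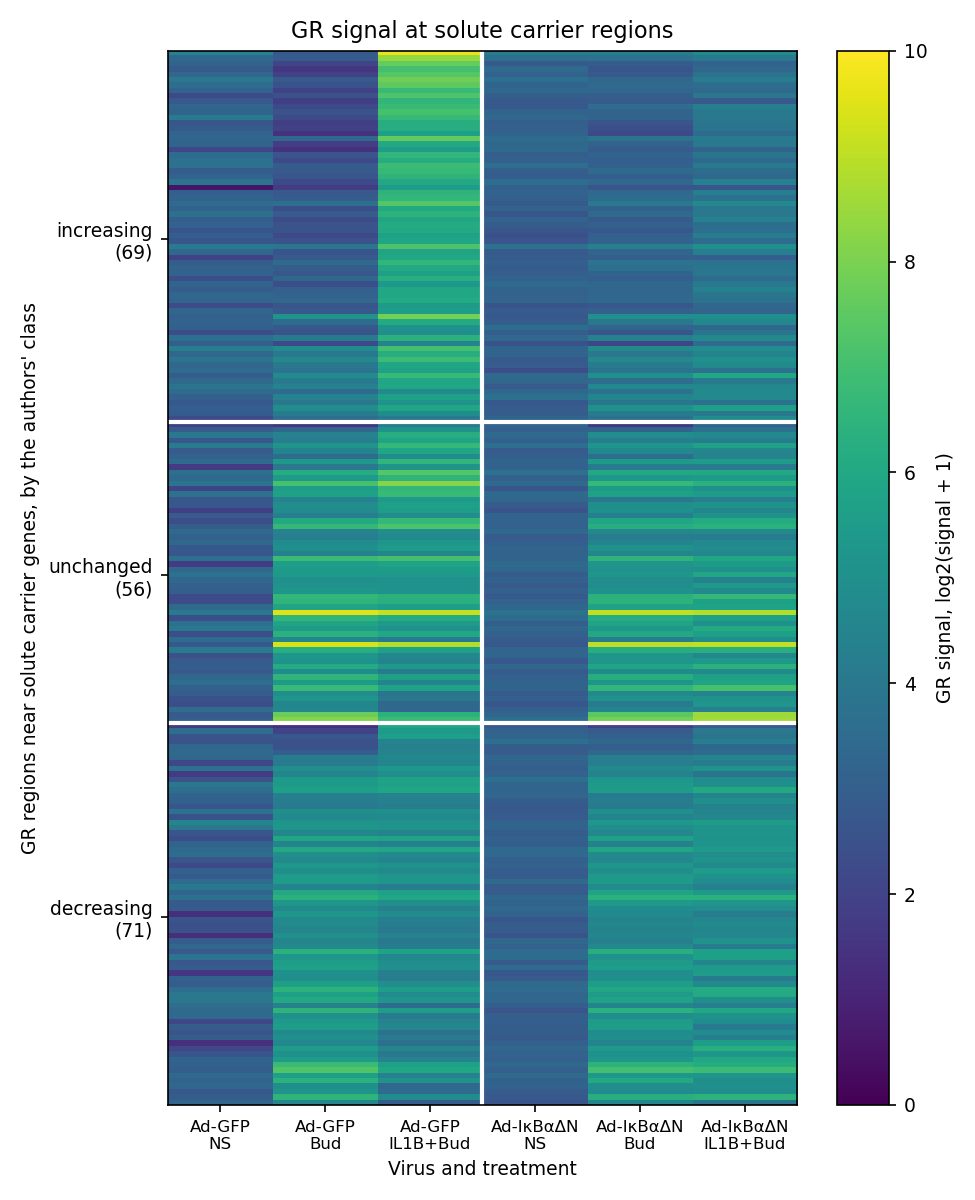
Deposited GR signal, log2(signal + 1) in colour, of the 196 solute carrier regions (rows, by the authors' class and then by IL1B+Bud minus Bud in Ad-GFP) in the 6 groups (columns). Of the 69 regions of the increasing class, 63 have at least 2-fold less signal in IL1B+Bud of Ad-IκBαΔN than of Ad-GFP, and most of the 56 unchanged and 71 decreasing regions are brighter with Bud than in NS in both viruses.

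Budesonide alone was accompanied by higher GR signal at most solute carrier regions. In Ad-GFP the median signal of the members was 7.57 in NS and 24.0 with Bud. In Ad-IκBαΔN it was 7.58 and 23.6. In Ad-GFP 120 members (61.2%) were at least 2-fold higher with Bud, where 57.9% of all regions were. Lower values were found at 14 members (7.14%), with 8.14% of all regions. In Ad-IκBαΔN 127 members were higher, beside 59.3% of all regions, and 1 was lower, beside 1.06%. The median log2 difference of the members was 1.48 in the first virus and 1.56 in the second, beside 1.37 over all regions in both. These shares lie near the background of the table.

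The size of the budesonide gain rests on the scale that the authors gave each group. With the group medians made equal, a step that moves the median of all regions from 1.37 to -0.03 in Ad-GFP, 49 members of Ad-GFP were higher and 60 lower, and in Ad-IκBαΔN 38 and 49. With the medians of the unchanged class made equal the counts were 32 and 74, and 20 and 65. With quantile normalization they were 48 and 43, and 49 and 36. Equal medians, here a constant added to the log2 values of a group, keep the order of regions within a comparison. A factor on the signal itself, or quantile normalization, need not keep it.

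Among the sugar transporters, SLC45A1, a proton-coupled sugar carrier, had the highest budesonide gain of all members. Its region 58.8 kb upstream, at chr1:8259126-8259525, had signals of 5.77 in NS, 676 with Bud and 462 with IL1B+Bud in Ad-GFP, against 5.69, 514 and 544 in Ad-IκBαΔN. A region in an intron of its relative SLC45A4, 50.5 kb from the start, had 16.7, 744 and 560, and 12.4, 544 and 464. Here and below, signals given as 3 values follow the order NS, Bud and IL1B+Bud, for Ad-GFP and then for Ad-IκBαΔN, and pairs follow the order Bud and IL1B+Bud unless named. The SLC45A1 and SLC45A4 regions were high in every budesonide group and low in both NS groups. The glucose transporter family SLC2 gave SLC2A14, 5.73 kb upstream, with 6.70, 154 and 62.9, and 7.30, 129 and 114. Its log2 difference with Bud was 4.33 with the control virus and 3.97 with IκBαΔN. SLC2A1, the widely expressed glucose transporter GLUT1, had 6.19, 26.7 and 19.6, and 9.88, 28.3 and 28.7, at its region 80.6 kb upstream. Its other region, 5.10 kb upstream, had 8.95, 4.75 and 19.7, and 6.74, 6.88 and 9.54, and so was not above NS with Bud in Ad-GFP.

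Vitamin and organic ion transporters followed. SLC19A2, the thiamine transporter THTR1, had its region in the UTR 0.064 kb from the start, with 7.05 in NS, 291 with Bud and 112 with IL1B+Bud in Ad-GFP, against 11.9, 240 and 396 in Ad-IκBαΔN. SLCO4A1, an organic anion transporter, had 5.87, 211 and 82.5 at its region 18.4 kb upstream, and 8.54, 173 and 373 in Ad-IκBαΔN. In both regions the IL1B+Bud value lay below the Bud value in Ad-GFP and above it in Ad-IκBαΔN. SLC22A3, the organic cation transporter OCT3, had 4.32, 94.7 and 70.3 at an intron region 45.7 kb from the start, and 10.5, 72.5 and 52.1. SLC23A2, the vitamin C transporter SVCT2, had 13.3, 136 and 292 at an intron region 42.8 kb from the start, and 9.82, 102 and 82.6. The signs there were opposite to those at SLC19A2, with a difference on adding IL1B of 1.10 in control cells. In Ad-IκBαΔN it was -0.30, within 2-fold. The Ad-GFP difference became -0.48 when the steps in the values were divided out.

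SLC34A2, the sodium-phosphate cotransporter of alveolar type II cells, had 5 regions, of which 3 were higher with Bud in Ad-GFP. The one 46.6 kb from the start had 3.87 in NS, 96.5 with Bud and 85.3 with IL1B+Bud in Ad-GFP, against 5.86, 84.2 and 101 in Ad-IκBαΔN. SLC26A9, an epithelial chloride transporter, had 3.97, 90.7 and 79.6 at an intron region 3.63 kb from the start, and 7.76, 87.0 and 51.04. Signal at both regions was within 2-fold between Bud and IL1B+Bud in both viruses. The other 4 SLC34A2 regions differed among themselves, and 3 of the 5 were higher with IL1B in Ad-GFP, by up to 3.77 at the intron region 9.12 kb from the start.

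**Figure D2:**
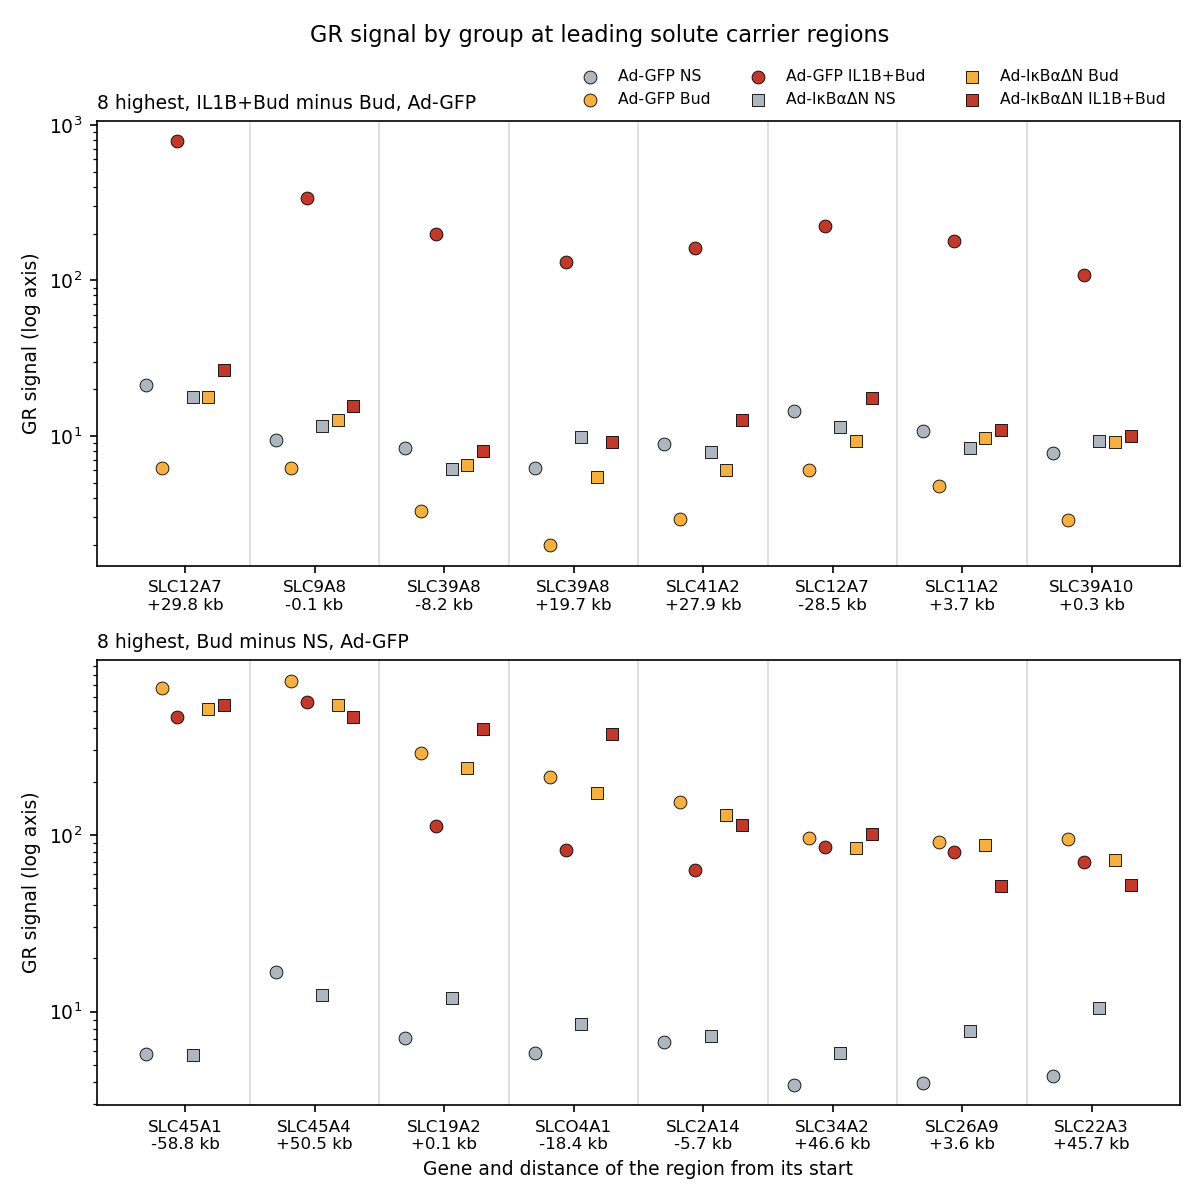
GR signal (log axis) in the 6 groups at the 8 solute carrier regions with the highest IL1B+Bud minus Bud (top) and the 8 with the highest Bud minus NS (bottom) in Ad-GFP; circles are Ad-GFP, squares Ad-IκBαΔN, 1 value each. At SLC12A7 +29.8 kb the IL1B+Bud value is 784 for Ad-GFP, 26.4 for Ad-IκBαΔN, and at SLC45A1 the 4 budesonide values lie between 462 and 676.

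Few members were lower with Bud than in NS, and those with the lowest differences belonged to ion, metal and organic ion carriers. An SLC22A3 intron region 10.5 kb from the start went from 8.68 in NS to 1.68 with Bud in Ad-GFP, and from 7.98 to 3.63 in Ad-IκBαΔN. The zinc importer SLC39A14 had 16.4 in NS and 3.89 with Bud at its intron region 21.6 kb from the start, and 8.90 and 8.24. Metal carriers had 6 of 19 regions lower with Bud (31.6%) and 9 higher (47.4%) in Ad-GFP, beside 8.14% and 57.9% of all regions. These differences rest on small Bud signals, and once the weakest 25% of regions were left out the share of members lower was 4.52% in place of 7.14%. With 5 in place of 1 added to the signal it was 2.55%.

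When IL1B was given with budesonide in Ad-GFP cells, some solute carrier regions had more GR signal than with budesonide alone, some had less and the others lay within 2-fold. At least 2-fold higher were 86 members (43.9%), where 48.9% of all regions were, and 16 (8.16%) were lower, where 6.07% were. The higher regions lay at 55 genes and the lower ones at 16, with 3 genes in both. The median signal went from 24.0 to 46.6, and the median log2 difference was 0.46, against 0.92 over all regions, 1.01 over all linked regions and 0.78 over 136 regions at other membrane transport genes (channels, pumps and ABC transporters), of which 64 were higher and 9 lower. No test of these differences in position was possible.

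The split between higher and lower depended on the scale. It was 62 against 80 with group medians equal, 73 against 51 with the medians of the unchanged class equal, 51 against 71 with quantile normalization and 55 against 101 with the steps divided out. Member medians were then -0.58, -0.04, -0.49 and -1.03, beside -0.12, 0.42, -0.13 and -0.61 for all regions. The median thus changes sign with the scale. In each of these settings it lay below that of all regions. The settings with equal medians add a constant to every region and cannot change that gap. Dividing out the steps comes close to such a constant, so these settings are not separate checks.

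In Ad-IκBαΔN cells the same addition left most members within 2-fold. Higher were 17 members (8.67%), beside 9.65% of all regions, and lower were 2 (1.02%), beside 0.94%. The median log2 difference was 0.22 (0.26 over all regions), with a median signal of 23.6 under Bud and 25.3 under IL1B+Bud. Higher and lower numbered 8 and 3 with group medians equal, 13 and 3 with the unchanged class equal, 0 and 2 with quantile normalization, and 1 and 26 with the steps divided out. Of the 86 members higher in Ad-GFP, 13 were also higher in Ad-IκBαΔN. Over those 86, the median difference was 3.05 with the control virus, but 0.53 in Ad-IκBαΔN, where values ran from -0.44 to 1.56. The 86 were chosen by their Ad-GFP difference, so a higher median there than in Ad-IκBαΔN follows in part from that choice. The 5252 regions of the whole table chosen in the same way had medians of 2.86 and 0.54. How many of those 5252 were also higher in Ad-IκBαΔN was not counted.

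**Figure D3:**
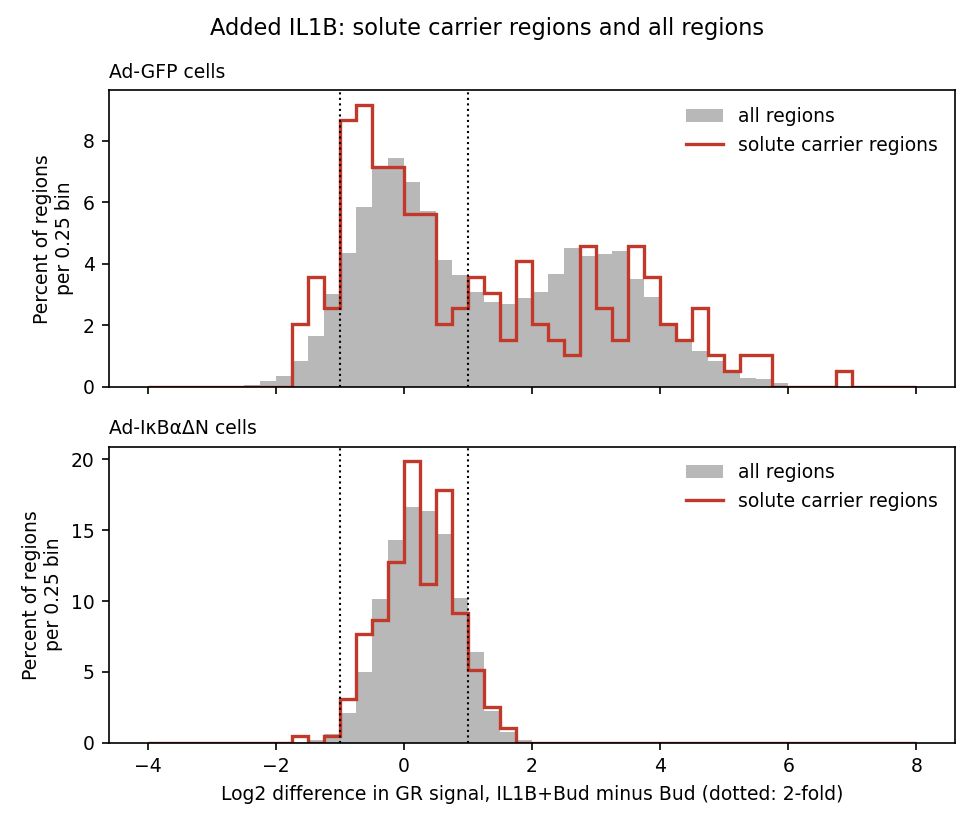
Share of regions (percent per bin of 0.25) by log2 difference, IL1B+Bud minus Bud, for the 196 solute carrier regions (line) and all 10740 regions (grey) in Ad-GFP (top) and Ad-IκBαΔN (bottom); dotted lines mark 2-fold. In Ad-GFP the solute carrier values run from -1.69 to 6.77, and in Ad-IκBαΔN from -1.51 to 1.56.

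The 8 highest gains with IL1B in Ad-GFP were at carriers of inorganic ions and of metals. SLC12A7, the potassium-chloride cotransporter KCC4, led with its intron region at chr5:1082041-1082440, the tandem repeat shown above. Its signals were 21.3 in NS, 6.20 with Bud and 784 with IL1B+Bud in Ad-GFP, against 17.7, 17.7 and 26.4 in Ad-IκBαΔN, so that 1 group stood far above the other 5. The log2 difference was 6.77 with the control virus, but 0.55 in Ad-IκBαΔN. Both other SLC12A7 regions, 27.8 and 28.5 kb upstream and close to each other, gave 4.52 and 5.00 in Ad-GFP, and each held a κB match.

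SLC9A8, the sodium-proton exchanger NHE8, had the second highest gain, at its promoter, 0.069 kb upstream of the start at chr20:49812445-49812844. Signals there were 9.35, 6.25 and 340 in Ad-GFP cells, against 11.6, 12.6 and 15.6 in Ad-IκBαΔN. The κB and AP-1 sites shown above lie in it. The other 4 SLC9A8 regions, 22.2 to 44.3 kb upstream, had differences from -0.54 to 2.21 in Ad-GFP. A further exchanger, SLC9A7 (NHE7), had 3.71 and 21.2 with Bud and IL1B+Bud in Ad-GFP, against 3.27 and 10.4 in Ad-IκBαΔN, where its 1.41 was among the 4 highest. The bicarbonate transporter SLC4A7 had 2 of 3 regions higher in Ad-GFP.

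The metal carriers held 9 higher regions (47.4%) and 1 lower (5.26%) among 19 in Ad-GFP, beside 48.9% and 6.07% of all regions. SLC39A8 (ZIP8), a zinc and manganese importer, had 8.40, 3.29 and 200.1 in Ad-GFP cells at chr4:102439256-102439655, 8.20 kb upstream, and 6.09, 6.53 and 7.95 in Ad-IκBαΔN. Its intron region 19.7 kb from the start had 6.18, 1.98 and 131, and 9.83, 5.47 and 9.19. SLC39A10 (ZIP10), a zinc importer, had 7.73, 2.90 and 109 at an intron region 0.293 kb from the start, and 9.31, 9.13 and 9.94. SLC41A2, a magnesium transporter, had 8.91, 2.92 and 163 at its κB region, and 7.90, 6.08 and 12.6. SLC11A2 (DMT1), the iron importer, had 10.8, 4.79 and 180 in an intron 3.67 kb from the start, and 8.39, 9.66 and 10.9. In each of these 5 regions the Bud value in Ad-GFP was the lowest of the 6 groups and the IL1B+Bud value in Ad-GFP the highest. SLC39A14 (ZIP14) had 2 intron regions higher, with log2 differences of 4.43 and 3.62, beside a region within 2-fold that had 112 with Bud and 133 with IL1B+Bud. SLC30A7, which loads zinc into the Golgi, had the highest difference of all members in Ad-IκBαΔN, 1.56, on signals of 2.10 and 8.14. That region was also the 1 member lower with Bud than in NS in Ad-IκBαΔN (-1.61), so its gain started from a Bud value below NS.

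**Figure D4:**
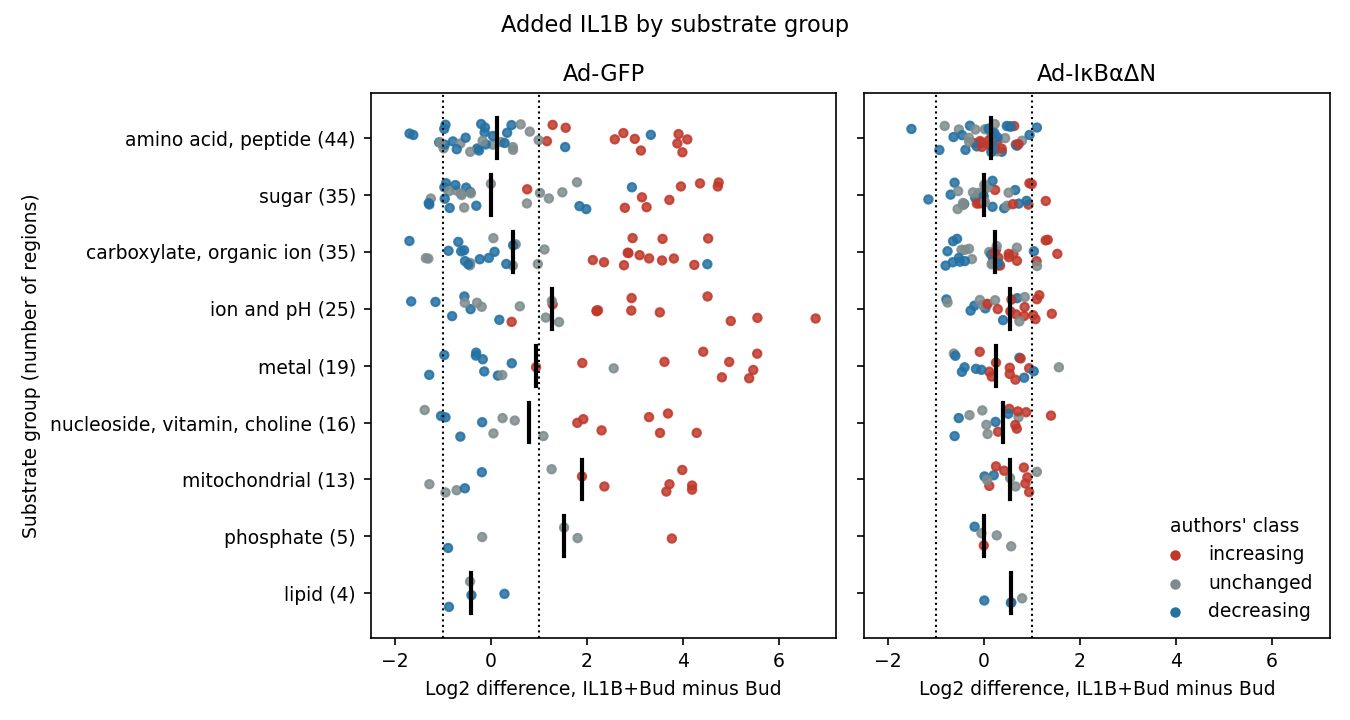
Log2 difference, IL1B+Bud minus Bud, of each solute carrier region by substrate group in Ad-GFP (left) and Ad-IκBαΔN (right); colours give the authors' class, black bars the medians and dotted lines 2-fold. The groups' medians run from -0.41 (lipid) to 1.90 (mitochondrial) in Ad-GFP and reach 0.57 (lipid) in Ad-IκBαΔN.

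By substrate, ion and pH carriers had 14 higher and 2 lower of 25 regions in Ad-GFP on adding IL1B, with a median of 1.28. Over all regions 48.9% were higher and 6.07% lower. Mitochondrial carriers had 8 and 1 of 13 (median 1.90), and nucleoside, vitamin and choline carriers 8 and 2 of 16 (0.80). Organic ion and carboxylate carriers had 15 and 3 of 35 (0.47), sugar carriers 15 and 3 of 35 (0.01), and amino acid carriers 14 and 4 of 44 (0.13). The 4 lipid regions had none past 2-fold, and the 5 phosphate regions, all at SLC34A2, had 3 higher. Amino acid carriers had 33 of 44 regions higher with Bud alone in Ad-GFP. Ion and pH carriers had 13 of 25 and metal carriers 9 of 19, beside 57.9% of all regions. These groups are small, several regions belong to 1 gene, and no test of a difference between groups was made.

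Among the organic ion carriers, all 4 regions of SLCO3A1, an organic anion transporter, were higher with IL1B in Ad-GFP, by 3.10 to 4.53, and none was higher with Bud alone. Their signals with IL1B+Bud were 57.3, 65.0, 65.0 and 108 in control cells, against 13.7 to 20.1 in Ad-IκBαΔN. In Ad-IκBαΔN 2 of the 4 were past 2-fold, at 1.53 and 1.10. The lysosomal nucleoside transporter SLC29A3 had 2.87 and 74.8 with Bud and IL1B+Bud in Ad-GFP, against 4.41 and 13.2 in Ad-IκBαΔN, at a region inside the neighbouring gene UNC5B. Of the mitochondrial carriers, SLC25A51, which brings NAD into mitochondria, had 3 of 3 regions higher, at 1.90, 3.99 and 4.20, and SLC25A37, the iron importer mitoferrin, had 2 of 2, at 3.66 and 2.37.

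Amino acid carriers held regions of several kinds. SLC7A2, the arginine transporter CAT2, had 6.43 in NS, 5.97 with Bud and 104 with IL1B+Bud in Ad-GFP, against 7.22, 9.91 and 10.7 in Ad-IκBαΔN. SLC7A5 (LAT1), a carrier of large neutral amino acids, had 7.44, 34.7 and 242 at an intron region 15.5 kb from the start, and 5.53, 31.4 and 30.5. The SLC7A5 region was therefore above NS with Bud in both viruses and was higher still with IL1B+Bud in Ad-GFP but not in Ad-IκBαΔN. SLC7A11 (xCT), the cystine-glutamate exchanger, had 2 regions, both in the decreasing class and both within 2-fold on adding IL1B in either virus.

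SLC38A2 (SNAT2), a carrier of neutral amino acids, had the most regions, 8, all between 11.2 and 95.6 kb upstream. With Bud 7 of the 8 were higher in Ad-GFP, by up to 3.67. The highest, 72.9 kb upstream with the GRE-like site shown above, had 7.68, 109 and 55.0 in control cells, against 8.28, 98.2 and 134 in Ad-IκBαΔN. Adding IL1B in Ad-GFP gave 2.59 at the region closest to the start and 1.29 at 57.8 kb, and values from -0.98 to 0.46 at the other 6. The region 31.1 kb upstream had the lowest difference of all members in Ad-IκBαΔN, -1.51, from 47.9 to 16.2. SLC3A1, the heavy chain of the cystine transporter, had 5 regions, all in the decreasing class and all higher with Bud in Ad-GFP, by 1.20 to 2.28.

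**Figure D5:**
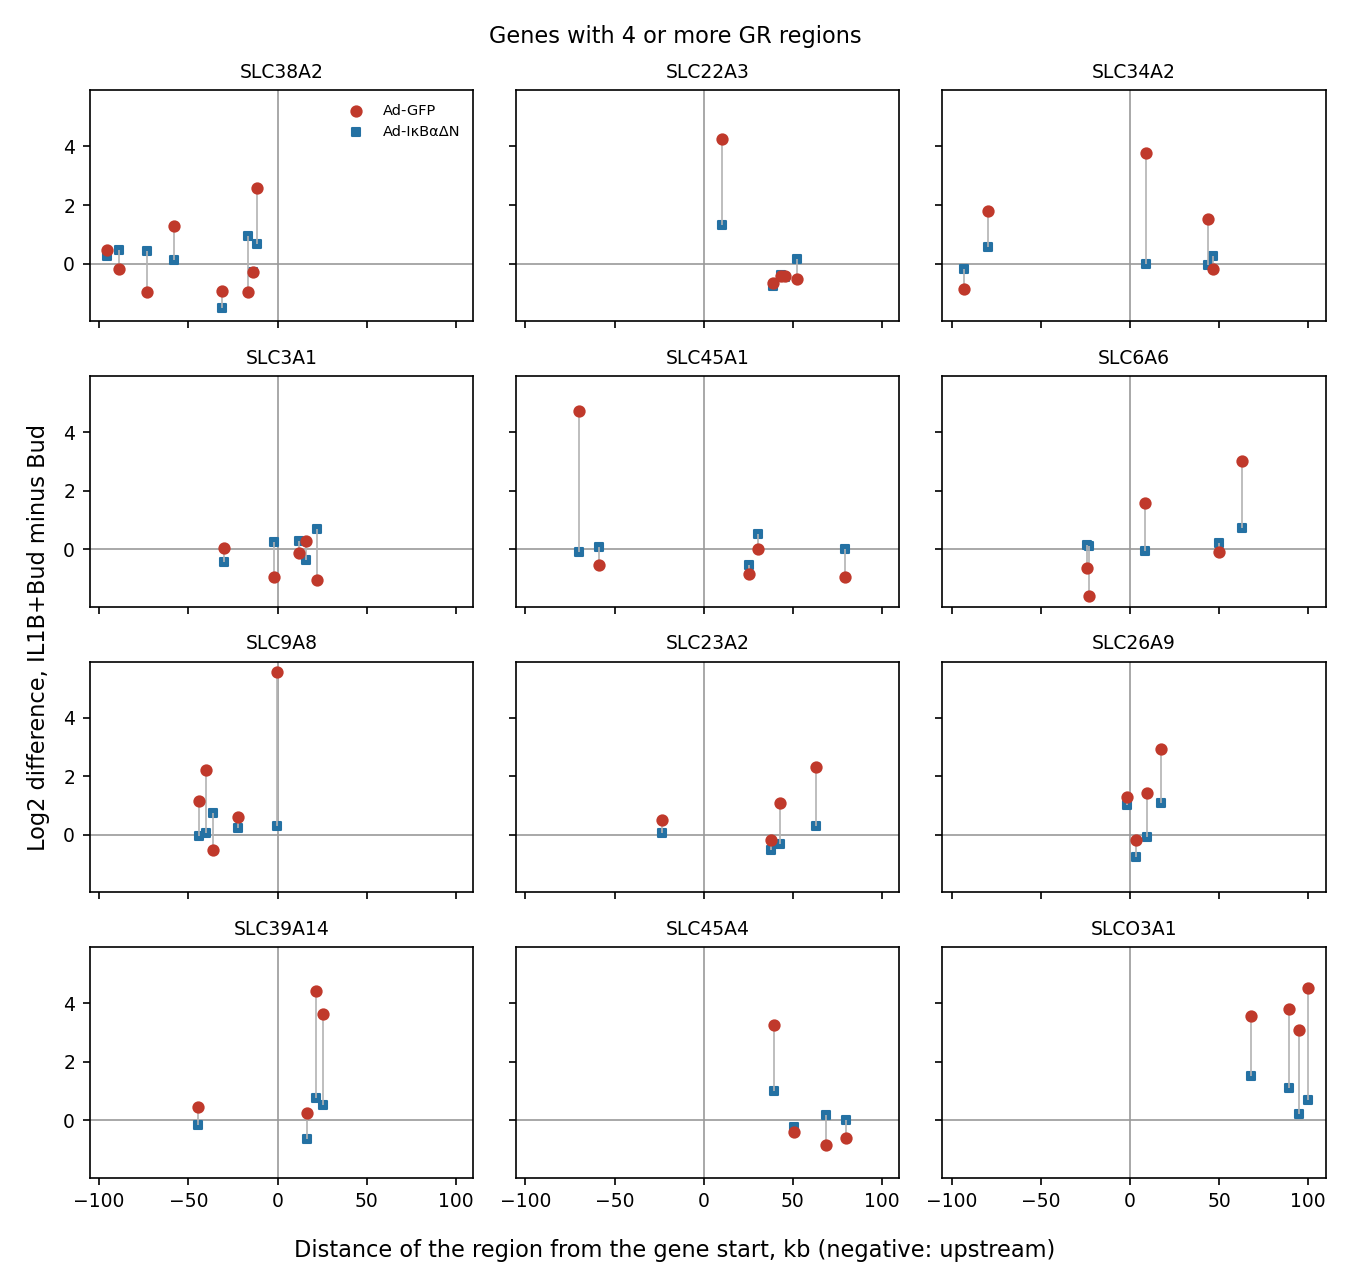
Log2 difference, IL1B+Bud minus Bud, against distance from the gene start (kb, negative upstream) for the 12 solute carrier genes with 4 or more GR regions; red circles are Ad-GFP and blue squares Ad-IκBαΔN. SLC38A2 has 8 regions, all upstream, with 2 past 2-fold in Ad-GFP, while all 4 SLCO3A1 regions lie between 3.10 and 4.53 in Ad-GFP.

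At 16 members signal was at least 2-fold lower with IL1B+Bud than with Bud in Ad-GFP. The authors' class did not always match the sign of this difference, since 6 members of the decreasing class were at least 2-fold higher in Ad-GFP. Among them were regions at SLC6A11 (3.34), a GABA transporter, SLC2A11 (2.94), SLC5A11 (1.99), SLC2A1 (1.85) and SLC1A2 (1.55), a glutamate transporter.

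SLC7A7 (y+LAT1), the light chain of a cationic amino acid exchanger, had 91.7 and 27.8 with Bud and IL1B+Bud in Ad-GFP, against 78.4 and 87.3 in Ad-IκBαΔN. SLC4A4, the sodium bicarbonate cotransporter NBCe1, had 34.7 and 10.3, and 28.1 and 28.7. The taurine transporter SLC6A6 had 30.2 and 9.22 at its region 23.1 kb upstream, and 29.2 and 31.2. In these 3 regions the Bud values of the 2 viruses were close and the IL1B+Bud value of Ad-GFP was the low one among the 4 budesonide values. Over the 16 members, the median difference was -1.28 in control cells, beside 0.00 in Ad-IκBαΔN, and 1 of the 16, SLC2A2, was also lower in Ad-IκBαΔN. The 16 were chosen by their Ad-GFP difference, so a lower median there follows in part from that choice. All 652 regions chosen in the same way had medians of -1.25 and -0.10. At 2 of the 16, SLCO4A1 and SLC25A25, signal was at least 2-fold higher in Ad-IκBαΔN, by 1.10 at each, and fell within 2-fold under quantile normalization (0.78 and 0.80) and with the steps divided out (0.52 and 0.54). SLC25A25, a mitochondrial carrier of ATP-Mg and phosphate, had 23.4 and 9.07 at its region 24.3 kb upstream in Ad-GFP, against 16.4 and 36.4 in Ad-IκBαΔN.

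The viruses were also compared at the same treatment. With Bud, 8 members had at least 2-fold more signal in Ad-IκBαΔN, beside 4.02% of all regions, and none lower, beside 0.0186%. The median log2 difference was -0.01. With IL1B+Bud, 81 members (41.3%) were lower in Ad-IκBαΔN, beside 46.5% of all regions, and 21 (10.7%) were higher, beside 5.97%. The median was -0.53 (-0.85 over all regions). Lower and higher numbered 46 and 61 with group medians equal or with quantile normalization, 45 and 61 with the steps divided out, and 61 and 41 with the unchanged class equal. The lowest values were at SLC12A7 (-4.84), SLC39A8 (-4.49), SLC9A8 (-4.36) and SLC11A2 (-3.93), and the highest at SLCO4A1 (2.16), SLC25A25 (1.89), SLC41A3 (1.86) and SLC19A2 (1.81). This comparison uses the same IL1B+Bud values of Ad-GFP as the one above and is not separate evidence.

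Motif content differed between the classes of members. A κB match was present in 42.0% of the 69 increasing regions, 1.79% of the 56 unchanged and 7.04% of the 71 decreasing, beside 40.3%, 11.8% and 4.49% over all regions. Of the 35 members with a κB match, 32 were higher with IL1B in Ad-GFP, with a median of 3.62, and over all regions with one 92.5% were higher, with a median of 3.09. Of the 161 members without one, 54 were higher (33.5%) and 16 lower (9.94%), beside 37.1% and 7.63% of all regions without one. Of the 31 members with a GRE-like match, 8 were higher and 7 lower, with a median of -0.72, beside 18.1% higher and 13.5% lower over all regions with one (median -0.16). With Bud alone 23 of those 31 (74.2%) were higher with the control virus, and 25 (80.6%) in Ad-IκBαΔN, beside 80.6% and 83.5% of all regions with a match. In Ad-GFP 7 of the 11 members within 1 kb of a gene start were higher with IL1B (63.6%) and 1, SLC19A2, was lower, beside 66.6% and 2.48% of the 404 regions at that distance.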

How the data were processed

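The authors deposited log2 GR binding intensities, 1 value for each of 10740 regions in each of 6 groups, with the difference from NS within each virus. Ad-IκBαΔN of the labels is written Ad-IκBα in the table. Per the submitters' processing notes, the tools were Bowtie2 2.4.4, MACS2 2.2.7.1, DiffBind 3.2, SAMtools, FastQC 0.10.1 and bcl2fastq, with GRCh38 (hg38). The tool behind the intensities, the scale of each group and the way its 2 libraries were joined are not stated in the sources used here. Libraries for RELA and input were not used here.

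Values were read as log2(signal + 1), since 2 raised to the value, less 1, and multiplied by the 400 bp of a region, fell on multiples of a step (tolerance 0.001). The step was 1 in Ad-GFP NS (10739 of 10740 regions), Ad-GFP Bud and Ad-IκBαΔN Bud, 3 in Ad-GFP IL1B+Bud and 1.5 in Ad-IκBαΔN IL1B+Bud; none was found in Ad-IκBαΔN NS. Groups may therefore differ in scale. With 1 value per group no test was made. The alternatives were 4 scalings, a pseudocount of 5, leaving out low regions, a 50 kb limit and 1 region per gene.

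Named regions were the 8 highest and 4 lowest differences in Ad-GFP for Bud minus NS and for IL1B+Bud minus Bud, the 4 highest and 4 lowest for IL1B+Bud minus Bud in Ad-IκBαΔN and for the viruses with IL1B+Bud, the 8 highest Bud signals, genes with 4 or more regions and a list of 16 genes, of which 5, among them SLC26A2, SLC6A14, SLC20A1 and SLC16A1, had no member region. SLC7A5, SLC25A37, SLC25A51 and the genes of the decreasing class with a gain were named after their values were seen, as were the GRE-like sites shown. Results for some named regions are not reported here. The members and lists were chosen with earlier results of these data known. Substrate groups came from the family number. The counting was tested on simulated data. Computation used scipy 1.17.1, pandas 2.3.3, numpy 2.4.6 and matplotlib 3.10.9 under Python 3.11.15.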

Additional observations from a re-analysis of the deposited data

Results flagged for a closer look

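At 2 of the 196 solute carrier regions the effect of adding IL1B to budesonide was at least 2-fold in opposite directions in the viruses. How many of all 10740 regions did the same was not counted. At the SLCO4A1 region 18.4 kb upstream the log2 difference was -1.35 with the control virus Ad-GFP, but 1.10 in Ad-IκBαΔN, 2.45 apart. At the SLC25A25 region 24.3 kb upstream it was -1.27 and 1.10, 2.38 apart. The values in Ad-IκBαΔN stayed above 0 but came within 2-fold under most scalings. At SLCO4A1 they were 0.98 with group medians equal, 1.01 with the unchanged class equal, 0.78 with quantile normalization, 0.52 with the steps divided out and 1.09 with a pseudocount of 5. At SLC25A25 they were 0.98, 1.01, 0.80, 0.54 and 0.95 in the same order. The Ad-GFP values stayed at least 2-fold lower under all 5. With 1 value per group the difference between the viruses was not tested at either region.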

How the results depend on the processing

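Of 106 member shares recomputed under the alternatives, 67 stayed close to the reported value and 39 did not; linking by any transcript start, or within 50 kb, moved none by over 1.5 times. For at least 2-fold higher and lower with Bud than NS in Ad-GFP, the shares were 25.0% and 30.6% with group medians equal, 16.3% and 37.8% with the medians of the unchanged class equal, and 24.5% and 21.9% with quantile normalization. For lower alone they were 2.55% with a pseudocount of 5 and 4.52% without the lowest 25% of regions. In Ad-IκBαΔN they were 19.4% and 25.0%, 10.2% and 33.2%, and 25.0% and 18.4% under the same 3 scalings, and for lower 0% with a pseudocount of 5, 0% without low regions and 1.01% with 1 region per gene. For IL1B+Bud minus Bud in Ad-GFP, 26.0% were higher with quantile normalization and 28.1% with the steps divided out, and 40.8%, 26.0%, 36.2% and 51.5% were lower under the 4 scalings in the order medians, unchanged class, quantiles and steps. In Ad-IκBαΔN the higher share was 4.08% with medians equal, 0% with quantiles, 0.51% with steps, 1.02% with a pseudocount of 5 and 3.87% without low regions, and the lower share 13.3% with steps. For the viruses with Bud, the higher share was 0% with quantiles, 0.51% with a pseudocount of 5 and 1.94% without low regions. With IL1B+Bud, it was 31.1% with medians equal, with quantiles and with steps and 20.9% with the unchanged class equal, and the lower share was 23.5% with medians equal and with quantiles and 23.0% with steps. For named regions, 200 differences were recomputed, each in the comparison that named it. Of these, 184 kept their side of the 2-fold limit and 16 crossed it, all 16 for IL1B+Bud minus Bud in Ad-IκBαΔN. None changed direction. Each region was among the highest or lowest of that comparison, so this follows in part from the choice. Elsewhere direction could change. At the SLC23A2 region named above, IL1B+Bud minus Bud in Ad-GFP was 1.08 with a pseudocount of 5 and -0.48 with steps. At the SLC6A6 region named above, Bud minus NS in Ad-GFP was 1.59 with steps and -0.34 with the unchanged class equal. How many did so was not counted. Dividing out steps was not run for Bud minus NS in Ad-IκBαΔN, where no step was found. The cause of these shifts was not tested. No paired analysis was possible because the table holds 1 value per group. Depth is unknown, so small signals, as in most NS values, have no stated precision.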
